A study of Mus musculus with 12 samples.

Results

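The 10 genes described here are the liver's receptor and signalling chain for growth hormone, with the main repressors that act on its sex-biased output. They are the receptor *Ghr*, the kinase *Jak2*, the transcription factors *Stat5a* and *Stat5b*, the feedback inhibitors *Socs2* and *Cish*, the secreted products *Igf1* and *Igfals*, and the repressors *Bcl6* and *Cux2*. They were chosen by gene symbol, and all 10 were found among the 25676 genes of the expression table, which is in TPM (transcript abundance per length, scaled to the same sum in every library). RNA was sequenced from whole livers of 12 mice on a C57BL/6 background at 3 to 4 months of age. The labels describe 6 mice as wild type (WT) and 6 as Foxa3-Cre YAP1 knockout (KO), with 3 males and 3 females of each genotype, so that there were 4 groups of 3 mice. *Foxa3*-driven Cre acts in the endoderm lineage that gives rise to liver parenchyma and bile ducts, and liver cells of other origins should keep *Yap1*. The labels mention no allele or agent shared by KO and WT, and do not say whether the WT mice carried Cre.

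Growth hormone from the pituitary binds GHR on hepatocytes, the associated kinase JAK2 is activated, and STAT5A and STAT5B are phosphorylated and enter the nucleus. Male mice release growth hormone in pulses and females more continuously, and hepatocytes read the pattern through STAT5B to set a large group of sex-biased genes. STAT5 induces *Igf1*, *Igfals*, *Socs2* and *Cish* and represses *Bcl6*. BCL6 is the more abundant repressor in male liver and CUX2 is a female-specific repressor of male-biased genes that also activates some female-biased ones.

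The comparison of KO with WT asked which transcripts differ without *Yap1*, and the mice of both sexes allow the same question in each sex. *Yap1* was between 23.0 and 34.9 TPM in the 6 WT livers and between 0.994 and 3.11 TPM in the 6 KO livers (log2 difference -3.36, two-sided exact permutation p = 0.005, the smallest that 400 arrangements within sex can give). The summed TPM of 4 genes of the Y chromosome (*Uty*, *Kdm5d*, *Ddx3y* and *Eif2s3y*) was 52.5 to 101 in males and at most 0.122 in females. Differences below are on the log2(TPM + 1) scale, which understates changes of low genes, and were tested with limma with Benjamini-Hochberg adjustment over 12278 genes and a threshold of 0.05. The median difference over all tested genes was 0.35 for KO minus WT, so most genes lay higher in KO. Values after median-of-ratios rescaling, which moved that median to -0.04, are given beside the deposited scale where they change a call. All 8 hepatocyte markers were detected, with a summed level of 77556 to 104532 TPM in WT and 58909 to 84225 TPM in KO, and 2 of the 8 were lower in KO (median log2 difference -0.03). Markers of other cells were counted beside the share of all tested genes, 50.1% higher and 4.82% lower in KO. The stellate, cholangiocyte and neutrophil counts of higher markers lay near that share. All 6 Kupffer cell markers were higher in KO (summed 59.4 to 207 TPM in WT, 293 to 613 in KO), as were 4 of the 7 stellate cell markers (28.3 to 57.8 and 88.3 to 204.6) and 3 of the 5 tested cholangiocyte markers (37.5 to 67.9 and 264 to 729), with 1 other cholangiocyte marker lower, and none of the 7 stellate and 7 cholangiocyte markers was at 0 throughout either genotype. Most of the cholangiocyte sum in KO was *Spp1* (mean 33.8 TPM in WT, 492 in KO), while *Krt19* was at 1.38 and 1.24 TPM and *Epcam* fell from 0.94 to 0.515 TPM. Of the others, 1 of 6 endothelial markers was higher and 1 lower (42.4 to 66.7 and 27.3 to 107), 2 of 3 tested neutrophil markers were higher (0.16 to 19.05 and 9.26 to 41.7), with 1 of the 6 listed at 0 in all WT livers, and 0 of 4 tested lymphocyte markers passed (1.62 to 7.02 and 1.80 to 6.78; 0 at an unadjusted p under 0.05). After rescaling 5 Kupffer, 3 stellate, 2 cholangiocyte, 0 endothelial and 0 neutrophil markers were higher, and 2 stellate, 1 cholangiocyte, 2 endothelial and 4 of the 8 hepatocyte markers were lower. Of all tested genes 20.9% were then higher and 18.7% lower. The part of these cells in the results below was not tested, and in bulk tissue fewer cells of a type and less RNA per cell cannot be told apart.

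Over both sexes, 3 of the 10 genes were higher in KO (*Jak2*, *Stat5a* and *Stat5b*) and 3 were lower (*Ghr*, *Igf1* and *Igfals*), while *Socs2*, *Cish*, *Bcl6* and *Cux2* did not pass. *Socs2* lay near the threshold (log2 difference 0.91, limma adjusted p = 0.0528). It passed with a covariate for the 2 mice with animal numbers under 100 (0.0453), without both of them (1.12, limma adjusted p = 0.029) and without any one of WT female replicate 2, WT female replicate 3 and KO female replicate 2 (1.04 to 1.15, adjusted p 0.0136 to 0.0389). *Cish* (0.88, limma adjusted p = 0.0801) passed without KO female replicate 2 (1.13, limma adjusted p = 0.024). The background was 50.1% of all tested genes higher and 4.82% lower. After rescaling, when 20.9% of genes were higher and 18.7% lower, *Ghr*, *Igf1* and *Igfals* were still lower and 0 of the 10 were higher. The median difference of the 10 was 0.16 as deposited and -0.24 after rescaling, against 0.35 and -0.04 over all tested genes. The KO and WT values did not overlap in 3 of the genes, with *Ghr* and *Igfals* lower (1.88% of all tested genes) and *Jak2* higher (28.7% of all tested genes). Separation of KO from WT within a sex is described below for single genes, and its share over all tested genes was not counted.

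**Figure D1:**
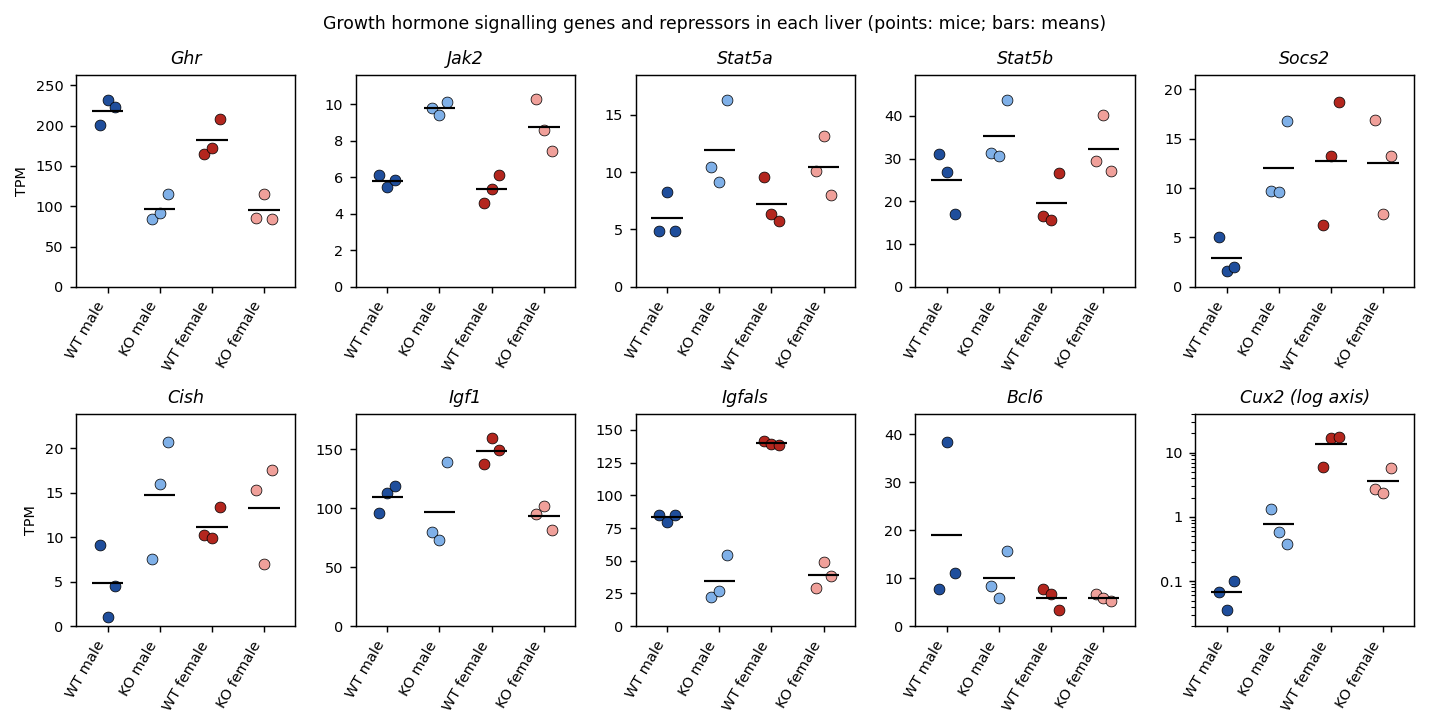
TPM of each of the 10 genes in each liver by group (points are mice, bars are group means; *Cux2* is on a log axis and the others on linear axes from 0). *Ghr* and *Igfals* lay lower in all 6 KO livers than in all 6 WT livers, and the 4 groups of *Cux2* did not overlap.

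The growth hormone receptor was lower in KO in both sexes. *Ghr* (ENSMUSG00000055737, GRCm38 chromosome 15, minus strand, 3317760 to 3583492) was at 200.5, 232 and 223 TPM in WT males, 165, 173 and 208 in WT females, 84.1, 91.8 and 115 in KO males, and 85.5, 115 and 84.7 in KO females. Every KO liver was below every WT liver. The mean fell from 200.2 ± 26.9 TPM (SD, n = 6) to 95.9 ± 14.8 TPM (SD, n = 6), a log2 difference of -1.06 (SE 0.118, limma adjusted p = 8.06e-06). It was -1.17 in males (limma adjusted p = 0.000141) and -0.94 in females (limma adjusted p = 0.000847), and -1.52 over both sexes after rescaling. The male and female effects differed by -0.24 (interaction, interval -0.74 to 0.27, limma adjusted p = 0.774). The sexes did not differ beyond their spread in WT (log2 difference 0.27, limma adjusted p = 0.317) or in KO (0.03, interval -0.32 to 0.39).

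*Jak2*, which encodes the tyrosine kinase bound to the receptor, moved the other way on the deposited scale. It was at 6.13, 5.47 and 5.87 TPM in WT males and 4.57, 5.36 and 6.16 in WT females, against 9.79, 9.41 and 10.1 in KO males and 10.3, 8.58 and 7.47 in KO females. All 6 KO values lay above all 6 WT values. The log2 difference was 0.64 (SE 0.105, limma adjusted p = 0.000206), 0.66 in males and 0.62 in females, against the 0.35 by which the median gene was higher. After rescaling it was 0.23 and did not pass (limma adjusted p = 0.0791). The gene (ENSMUSG00000024789) lies on chromosome 19, 29251828 to 29313080.

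The STAT5 transcription factors are made from adjacent genes on chromosome 11 of GRCm38, *Stat5a* at 100859351 to 100885169 and *Stat5b* at 100780731 to 100850724, which are separated by 8626 bases and point away from each other. Their coding sequences are closely alike, so the split of reads between them is uncertain. *Stat5b*, the main form in hepatocytes, was the more abundant in every liver. Its TPM was 1.72 to 4.67 times that of *Stat5a* in WT females, 3.23 to 6.35 times in WT males, 2.69 to 3.35 times in KO males and 2.92 to 3.39 times in KO females.

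*Stat5a* was at 4.88, 8.31 and 4.85 TPM in WT males, 9.59, 6.36 and 5.72 in WT females, 10.4, 9.13 and 16.3 in KO males, and 10.1, 13.2 and 8.004 in KO females. It was higher in KO over both sexes (log2 difference 0.68, SE 0.191, limma adjusted p = 0.00875), and KO and WT males did not overlap (0.88, limma adjusted p = 0.0178), while the females did (0.48, limma adjusted p = 0.190). The call in males was lost without any one of WT male replicate 1, WT male replicate 3 and KO male replicate 3, with adjusted p up to 0.0794 and a log2 difference of 0.65 to 0.77.

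*Stat5b* was at 31.0, 26.8 and 16.9 TPM in WT males, 16.5, 15.7 and 26.7 in WT females, 31.2, 30.6 and 43.7 in KO males, and 29.5, 40.1 and 27.1 in KO females. All KO females were above all WT females, and the KO and WT males overlapped. The log2 difference was 0.61 over both sexes (SE 0.179, limma adjusted p = 0.0115), 0.50 in males (limma adjusted p = 0.124) and 0.71 in females (limma adjusted p = 0.0497). In females it passed in only 4 of the 12 fits that left out 1 mouse each, with adjusted p up to 0.17, and was lost with a pseudocount of 0.1 (0.0518), no filter (0.0782), no trend (0.0538) and without the 20 most abundant genes (0.0883). After rescaling neither gene passed, with 0.26 for *Stat5a* (limma adjusted p = 0.292) and 0.16 for *Stat5b* (limma adjusted p = 0.555).

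The feedback inhibitors *Socs2* and *Cish*, both immediate targets of STAT5, had their lowest group means in WT males. In KO males they lay in a range that overlapped that of the females. *Socs2* encodes a ubiquitin ligase adaptor that limits signalling from the receptor. *Socs2* was at 5.07, 1.64 and 2.02 TPM in WT males and at 9.70, 9.55 and 16.8 in KO males, and these groups did not overlap. In females it was at 6.29, 13.3 and 18.7 TPM in WT and 16.9, 7.38 and 13.2 in KO, which overlapped throughout. The log2 difference was 1.79 in males (SE 0.409, 95% confidence interval 0.91 to 2.68, limma adjusted p = 0.0039; 1.33 and 0.0256 after rescaling) and 0.02 in females (interval -0.87 to 0.91, limma adjusted p = 0.976).

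*Cish*, which encodes a protein that competes with STAT5 at the receptor, was at 9.15, 0.983 and 4.49 TPM in WT males and 7.58, 16.005 and 20.7 in KO males. It was at 10.2, 9.88 and 13.4 TPM in WT females and 15.3, 6.996 and 17.6 in KO females. KO and WT overlapped in both sexes. In males the log2 difference was 1.61 (SE 0.515, limma adjusted p = 0.0224), and it did not pass after rescaling (1.15, limma adjusted p = 0.115). The male value rested on the low WT male replicate 2, without which it was 0.98 (limma adjusted p = 0.0912), and the call was also lost without KO male replicate 2 or 3. The difference in females was 0.15 (interval -0.96 to 1.27, limma adjusted p = 0.849).

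Whether these male and female effects differ was tested as the interaction of genotype and sex, male effect minus female effect. It was 1.77 for *Socs2* (SE 0.579, limma adjusted p = 0.333) and 1.46 for *Cish* (SE 0.728, limma adjusted p = 0.600). Neither passed, and 0 of the 10 genes did with limma (2 had an unadjusted p under 0.05, *Cux2* and *Socs2*), against 0.912% of all tested genes. *Socs2* and *Cish* stayed close to each other in level, with *Socs2* at 0.449 to 1.66 times the TPM of *Cish* over the 12 livers.

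Other genes of receptor signalling were taken from a list of 26, of which 25 were tested. In KO 16 were higher and 0 lower, against 50.1% and 4.82% of all tested genes (median 0.52, 0.35 over all). After rescaling 8 were higher and 1 lower, against 20.9% and 18.7% (median 0.14, -0.04 over all). *Socs3*, the feedback inhibitor best known from interleukin-6 and STAT3 signalling, was the largest rise. It was at 16.3, 9.13 and 3.99 TPM in WT males, 6.08, 5.65 and 2.95 in WT females, 51.01, 113 and 24.6 in KO males, and 45.5, 33.7 and 44.99 in KO females. No KO value overlapped a WT value, and the log2 difference was 2.68 (SE 0.347, limma adjusted p = 2.93e-05; 2.25 after rescaling). *Lepr*, the leptin receptor, *Ptpn1*, a phosphatase that acts on JAK2, and *Stat3* followed with differences of 1.08, 1.048 and 0.97. *Lepr* was at 0.344, 0.221 and 0.335 TPM in WT males and 2.34 to 5.68 TPM in KO males, against 1.98 to 4.22 in WT females and 3.63 to 4.05 in KO females.

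The secreted products of the pathway were lower in KO, *Igfals* more than *Igf1*. *Igfals* encodes the acid-labile subunit, which holds IGF1 in a long-lived complex in blood. *Igfals* (ENSMUSG00000046070, chromosome 17, 24865997 to 24882010 on the plus strand) was at 84.8, 79.8 and 85.1 TPM in WT males, 142, 139 and 139 in WT females, 22.4, 27.1 and 54.1 in KO males, and 28.8, 48.8 and 38.5 in KO females. The WT values were tight within each sex, every WT female was above every WT male, and every KO liver was below every WT liver. The mean fell from 112 ± 31.0 TPM (SD, n = 6) to 36.6 ± 12.7 TPM (SD, n = 6), a log2 difference of -1.60 (SE 0.195, limma adjusted p = 1.72e-05). It was -1.35 in males (limma adjusted p = 0.00157) and -1.86 in females (limma adjusted p = 0.0002), and -2.06 over both sexes after rescaling. The call was kept in all 12 fits that left out 1 mouse each.

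*Igf1* (ENSMUSG00000020053, chromosome 10, 87858265 to 87937042) encodes the main circulating growth factor under growth hormone control. It was at 96.1, 113 and 118 TPM in WT males, 138, 159 and 149 in WT females, 79.6, 73.04 and 139 in KO males, and 95.4, 102 and 81.7 in KO females. The females of the genotypes did not overlap, and in males KO male replicate 3, the KO liver with the highest *Igf1*, lay above all WT males. The log2 difference was -0.45 over both sexes (SE 0.156, limma adjusted p = 0.0262), -0.68 in females (limma adjusted p = 0.0239) and -0.22 in males (limma adjusted p = 0.391). After rescaling these were -0.91, -1.02 and -0.80, all with an adjusted p under the threshold. On the deposited scale the call over both sexes held in 6 of the 12 fits that left out 1 mouse each, with adjusted p up to 0.0644. In females it held in 8 of the 12, and was lost without any one of WT female replicates 2 and 3 and KO female replicates 1 and 3 (adjusted p up to 0.0904). Without both mice that carry animal numbers under 100 (WT female replicate 3 and KO female replicate 1), the adjusted p was 0.0854 over both sexes and 0.0982 in females. Without KO male replicate 3 the male difference was -0.51 (limma adjusted p = 0.0195).

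Ratios within a liver do not move with the scaling of its library. *Igfals* was at 0.875 to 1.03 times the TPM of *Igf1* in WT females and 0.706 to 0.883 times in WT males, against 0.302 to 0.48 times in KO females and 0.282 to 0.39 times in KO males. *Igf1* in turn was at 0.479 to 0.531 times the TPM of *Ghr* in WT males and 0.715 to 0.923 times in WT females, against 0.795 to 1.21 times in KO males and 0.888 to 1.12 times in KO females. *Igfals* was thus lower relative to *Igf1* in all 6 KO livers, and *Ghr* was lower relative to *Igf1* in all 3 KO males than in the WT males.

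The IGF binding proteins carry IGF1 and set its access to receptors. Of 15 genes listed for the IGF system 9 were tested, and 4 were higher and 1 lower in KO, against 50.1% and 4.82% of all tested genes (median 0.51, 0.35 over all). After rescaling 4 were higher and 4 lower, against 20.9% and 18.7% (median 0.20, -0.04 over all). *Igfbp3*, whose product forms the circulating complex with IGF1 and the acid-labile subunit, was at 6.55 to 9.18 TPM in WT males and 8.95 to 19.4 in WT females, against 1.80 to 3.47 in KO males and 3.68 to 5.36 in KO females (log2 difference -1.39, SE 0.177, limma adjusted p = 2.57e-05). *Igfbp1*, an insulin-repressed and stress-responsive binding protein, was at 1482, 644 and 41.8 TPM in WT males, 27.6, 44.6 and 101 in WT females, 2055, 1256 and 848 in KO males, and 838, 1499 and 930 in KO females (log2 difference 3.14, SE 0.741, limma adjusted p = 0.00297). WT male replicate 1 lay within the KO range. *Igfbp7*, *Igf2r* and *Igfbp2* were higher by 1.45, 0.98 and 0.89.

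**Figure D2:**
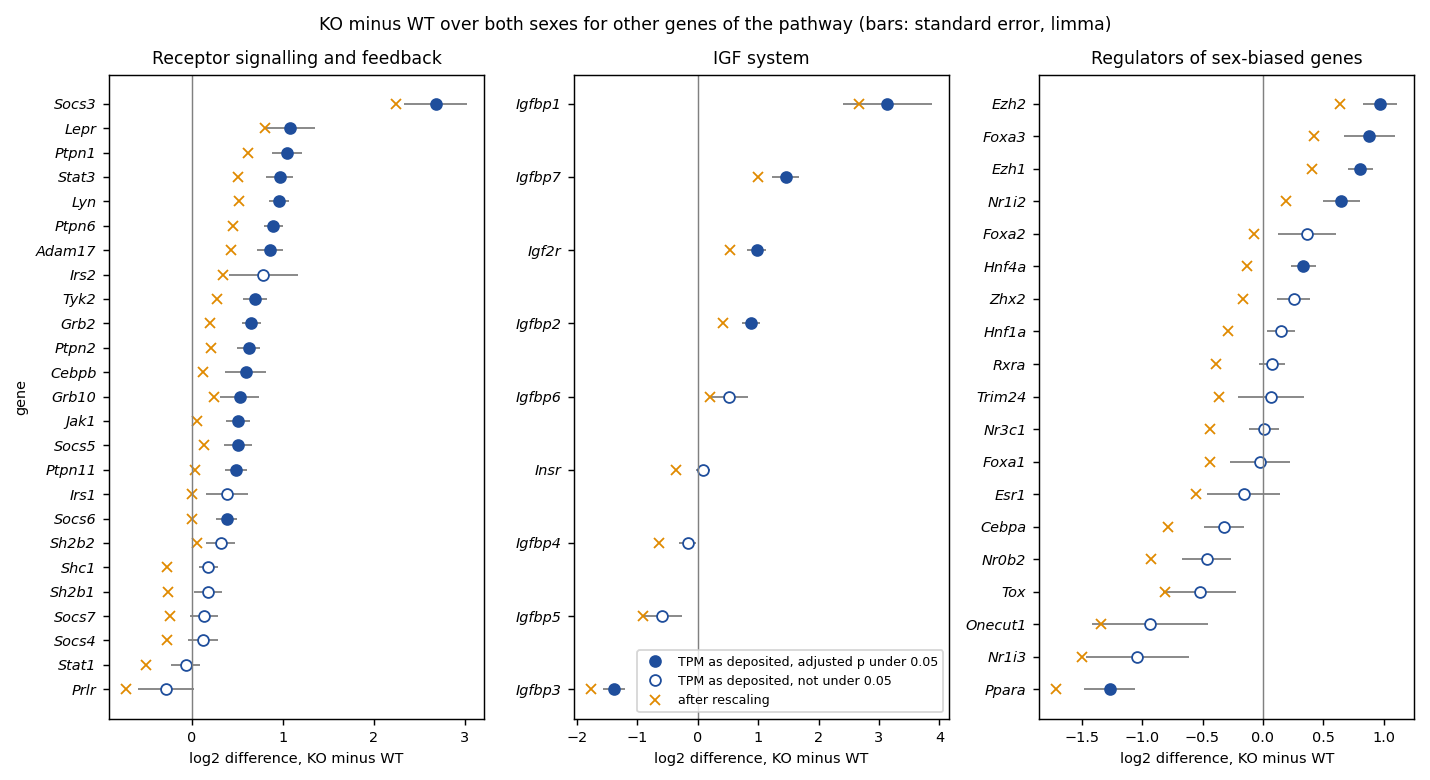
Log2 difference, KO minus WT over both sexes, for the tested genes of 3 other lists: receptor signalling and feedback, the IGF system, and regulators of sex-biased liver genes (circles as deposited, filled where the limma adjusted p was under 0.05; bars are standard errors; crosses after rescaling). *Socs3* at 2.68 and *Igfbp1* at 3.14 lay farthest from 0 in their lists, and 1 regulator is not drawn.

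*Bcl6* encodes a zinc-finger repressor that shares many binding sites with STAT5 in male liver. *Bcl6* (ENSMUSG00000022508, chromosome 16, 23965052 to 23988852 on the minus strand) was at 7.66, 38.5 and 11.1 TPM in WT males, 7.76, 6.66 and 3.30 in WT females, 8.30, 5.92 and 15.7 in KO males, and 6.79, 5.83 and 5.21 in KO females. KO and WT overlapped in each sex, and WT male replicate 2 stood far above all other livers. The library of that mouse also carries a number outside the run of the other 11. In that liver *Socs2* and *Cish* were also the lowest of the 12. The genotype difference was -0.29 over both sexes (interval -1.04 to 0.45, limma adjusted p = 0.490; -0.71 after rescaling, limma adjusted p = 0.146), and without WT male replicate 2 it was 0.04. The WT sex difference, male minus female, was 1.28 (SE 0.482, limma adjusted p = 0.126), and 0.63 without that mouse (limma adjusted p = 0.441).

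To show where STAT5 could read these genes, the 250 bases before each RefSeq start site (GRCm38.p6) were searched for TTCNNNGAA, the palindromic STAT5 motif, which reads alike on both strands. RefSeq start sites were found for 9 of the 10 genes, with 16 windows between them. *Socs2* had no start site in the sequences used and was not searched. The motif was in 4 windows, 2 of *Bcl6* and 2 of *Igfals*. Among 32851 windows of all genes, 7.02% held it, and 0.317% held more than one. The windows were also searched for GGAATG, a motif of the TEAD transcription factors, on both strands. It was in 3 windows, 1 each of *Bcl6* (the second), *Igfals* (the first) and *Cish*, and in 12.6% of all windows. The TEAD motif is not marked below. The windows are printed because these genes are those of the 9 searched with the motif near a start site. *Bcl6* is known to be repressed and *Igfals* to be induced by STAT5. The STAT5 motif is in capitals. The first *Bcl6* window lies just before the annotated gene, and the second, before a start site inside the gene, touches no annotated exon. Both *Igfals* windows lie inside the annotated gene and partly overlap exons of non-coding *Igfals* transcripts.
Bcl6, first start site, chr16:23988853-23989102, minus strand: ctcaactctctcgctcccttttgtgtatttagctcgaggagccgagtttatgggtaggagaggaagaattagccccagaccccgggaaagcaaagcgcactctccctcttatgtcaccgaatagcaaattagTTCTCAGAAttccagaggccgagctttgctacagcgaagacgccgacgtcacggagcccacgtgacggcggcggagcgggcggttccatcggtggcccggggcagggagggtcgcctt
Bcl6, second start site, chr16:23981284-23981533, minus strand: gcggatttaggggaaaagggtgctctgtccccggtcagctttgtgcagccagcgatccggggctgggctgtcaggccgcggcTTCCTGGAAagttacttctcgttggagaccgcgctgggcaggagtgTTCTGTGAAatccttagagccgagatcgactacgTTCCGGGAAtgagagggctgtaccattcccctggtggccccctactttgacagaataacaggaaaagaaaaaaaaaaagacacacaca
Igfals, first start site, chr17:24877594-24877843, plus strand: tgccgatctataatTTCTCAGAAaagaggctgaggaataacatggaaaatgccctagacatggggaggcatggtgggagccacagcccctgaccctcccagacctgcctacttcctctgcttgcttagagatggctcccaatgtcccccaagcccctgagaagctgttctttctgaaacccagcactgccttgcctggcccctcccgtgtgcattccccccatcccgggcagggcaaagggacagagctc
Igfals, second start site, chr17:24877981-24878230, plus strand: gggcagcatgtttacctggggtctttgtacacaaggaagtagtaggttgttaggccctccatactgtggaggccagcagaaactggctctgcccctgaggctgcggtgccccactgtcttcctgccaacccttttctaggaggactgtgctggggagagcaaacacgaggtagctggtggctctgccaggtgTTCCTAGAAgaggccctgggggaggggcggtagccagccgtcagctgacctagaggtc
The second *Bcl6* window holds 3 motifs, which begin 168, 122 and 88 bases before the start site, and the first holds 1, which begins 118 bases before it. In *Igfals* the motif begins 236 bases before the first of these start sites and 58 before the second. A match describes these letters and is no evidence of binding. Between *Bcl6* and *Igfals*, only *Igfals* differed between KO and WT beyond the spread.

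*Cux2* encodes a homeodomain repressor with strongly female-biased expression in liver. *Cux2* (ENSMUSG00000042589, chromosome 5, 121856366 to 122050102 on the minus strand) was at 0.069, 0.0352 and 0.0993 TPM in WT males and 5.86, 16.7 and 17.6 in WT females. In KO it was at 1.35, 0.591 and 0.385 TPM in males and 2.68, 2.32 and 5.68 in females. The 4 groups did not overlap, in the order WT female, KO female, KO male and WT male, and the narrowest gap was between the lowest WT female at 5.86 and the highest KO female at 5.68. Mean *Cux2* was 3.76-fold higher in WT than in KO females, and 11.4-fold higher in KO than in WT males, where the WT level was near 0 and the fold was 7.19 without KO male replicate 1.

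In females *Cux2* fell by 1.60 on the log2 scale (SE 0.365, limma adjusted p = 0.00494). Without both mice with animal numbers under 100, which had 17.6 TPM (WT) and 2.68 TPM (KO), the difference was -1.23 (limma adjusted p = 0.0685), while each fit that left out 1 mouse kept the call. In males the difference of 0.70 did not pass (interval -0.10 to 1.49, limma adjusted p = 0.133), but with a pseudocount of 0.1, which weighs low values more, it was 2.24 (limma adjusted p = 0.00362). The interaction was 2.29 (SE 0.517, limma adjusted p = 0.0684). It passed with a pseudocount of 0.1 (4.08, limma adjusted p = 0.0169), without the 20 most abundant genes (2.63, limma adjusted p = 0.0461), and without WT female replicate 1 (2.76, limma adjusted p = 0.00485) or KO female replicate 3 (2.60, limma adjusted p = 0.0416). Over both sexes the opposite movements left a difference of -0.45 (limma adjusted p = 0.358), or 0.20 with a pseudocount of 0.1.

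The ratio of *Bcl6* to *Cux2* shows how far the balance of these repressors differed between the sexes. *Bcl6* was at 111 to 1091 times the TPM of *Cux2* in WT males and 0.188 to 1.32 times in WT females. In KO it was at 6.17 to 40.8 times in males and 0.916 to 2.53 times in females. By this plain ratio the KO males lay between WT males and WT females without overlap, and the KO females overlapped with the WT females. The ratios in WT males rest on *Cux2* levels near 0. With a pseudocount of 1 the log2 ratio was 3.02 to 5.25 in WT males and 1.99 to 3.59 in KO males, which overlapped.

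**Figure D3:**
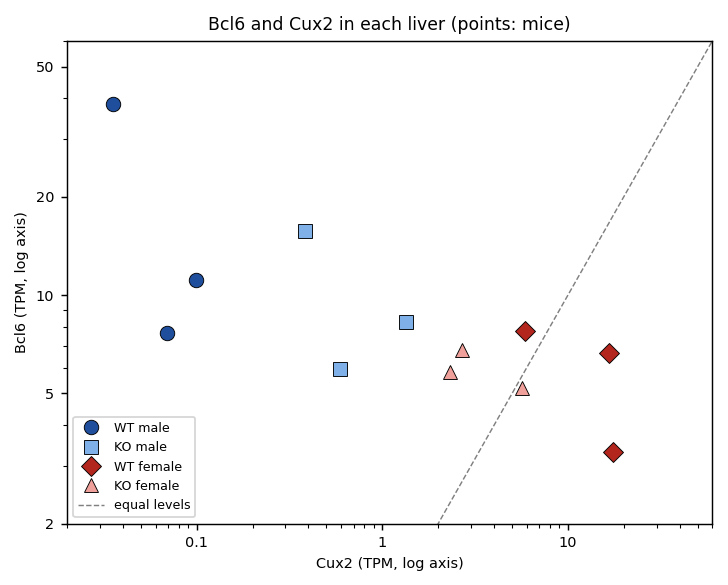
*Bcl6* against *Cux2* in each liver, both in TPM on log axes, with a dashed line at equal levels (points are mice). WT males lie at *Cux2* of 0.0993 TPM or less, KO males from 0.385 to 1.35, KO females from 2.32 to 5.68 and WT females from 5.86 to 17.6.

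The genes most like each of 3 members were ranked by the Pearson correlation of log2(TPM + 1) over the 12 livers, as a description of samples that share their groups and libraries. For *Cux2* they were *Cyp17a1* (r = 0.941), *A1bg* (0.932), *Rdh16f2* (0.927), *Sult2a2* (0.925) and *Tox* (0.919). *A1bg* had a mean of 639 TPM in WT females, 0.1004 in WT males, 8.56 in KO females and 3.89 in KO males. For *Igf1* they were *Fads1* (0.917), *Sepsecs* (0.911), *Smim10l1* (0.9), *H2bc21* (0.887) and *Nceh1* (0.886), and *Fads1* had a mean of 395 TPM in WT females and 232.8 to 248 in the other 3 groups. For *Bcl6* they were *Trp53inp2* (0.889), *Gm20671* (0.876), *Gnai1* (0.871), *Tacc1* (0.841) and *Galnt4* (0.835).

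The sex difference of the pathway was compared within each genotype. In WT, 2 of the 10 genes were higher in females, *Cux2* (log2 difference, male minus female, -3.62, SE 0.365, limma adjusted p = 4.91e-05) and *Socs2* (-1.80, SE 0.409, limma adjusted p = 0.0243), and 0 were higher in males. Over all tested genes 4.60% were higher in females and 1.14% in males (565 and 140 genes), a split that was 279 and 259 genes after rescaling, when *Cux2* and *Socs2* still passed. The call of *Socs2* was lost without any one of WT female replicate 2, WT female replicate 3 and WT male replicate 2, with adjusted p up to 0.109, with no filter on low genes (0.0573) and without both mice with animal numbers under 100 (0.0797). *Cish* (-1.33, limma adjusted p = 0.136), *Igfals* (-0.74, limma adjusted p = 0.112) and *Igf1* (-0.45, limma adjusted p = 0.200) did not pass although every WT female lay above every WT male, as in 27.5% of all tested genes. The *Cish* difference was -0.69 without WT male replicate 2. Without KO male replicate 3, whose values enter only through the shared spread, *Igfals* passed (-0.74, limma adjusted p = 0.0281). Of the 6 Kupffer cell markers, *Clec4f* and *Vsig4* were also higher in WT females (male minus female, -1.202 and -1.16, limma adjusted p = 0.0315 and 0.0419), though not after rescaling (-0.98 and -0.95, limma adjusted p = 0.0564 and 0.0879), and their part in these differences was not tested.

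In KO, 0 of the 10 genes differed between the sexes with limma (1 had an unadjusted p under 0.05, *Cux2*), against 0.0814% of all tested genes. *Cux2* still lay higher in all 3 KO females than in all 3 KO males (log2 difference -1.33, SE 0.365, limma adjusted p = 0.692), a separation in this direction seen in 5.09% of all tested genes. *Socs2* had a sex difference of -0.03 in KO (interval -0.92 to 0.86), *Cish* one of 0.13 (-0.98 to 1.25), *Igf1* one of 0.01 (-0.44 to 0.46) and *Igfals* one of -0.23 (-0.81 to 0.34).

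**Figure D4:**
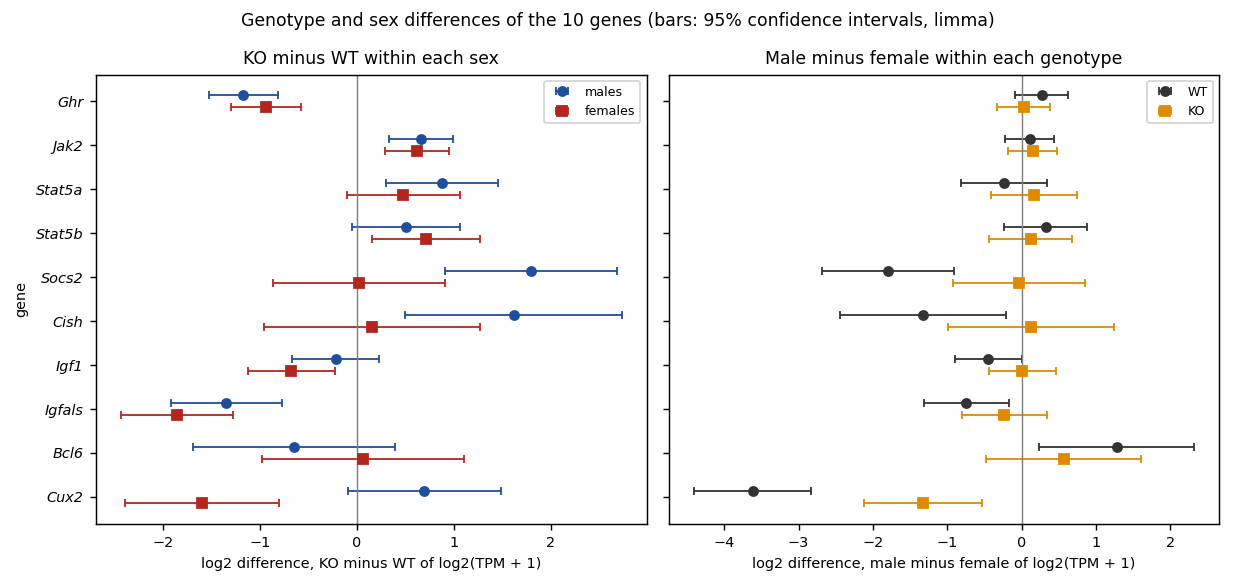
Log2 differences of the 10 genes with 95% confidence intervals from limma, KO minus WT in males and in females (left) and male minus female in WT and in KO (right). *Ghr* and *Igfals* lay below 0 in both sexes, and the WT sex difference of *Cux2*, -3.62, was the one farthest from 0.

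Within each sex, 6 of the 10 genes passed in males, 4 higher in KO (*Jak2*, *Stat5a*, *Socs2* and *Cish*; 43.3% of all tested genes were higher) and 2 lower (*Ghr* and *Igfals*; 2.81%). In females, 2 were higher (*Jak2* and *Stat5b*; 29.1%) and 4 lower (*Ghr*, *Igf1*, *Igfals* and *Cux2*; 4.68%). After rescaling, 4 genes passed in males, *Ghr*, *Igf1* and *Igfals* lower (10.2% of all tested genes) and *Socs2* higher (13.9%). In females 4 passed after rescaling, *Ghr*, *Igf1*, *Igfals* and *Cux2*, all lower (10.9% of all tested genes).

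Among 20 other regulators of sex-biased liver genes, 5 were higher and 2 lower in KO, against 50.1% and 4.82% of all tested genes (median 0.04, 0.35 over all). After rescaling 2 were higher and 9 lower, against 20.9% and 18.7% (median -0.41, -0.04 over all). *Ppara*, a fatty acid sensor, was lower (-1.27), and *Ezh2* and *Ezh1*, which encode histone methyltransferases of the Polycomb complex, were higher by 0.97 and 0.81. *Foxa3*, whose promoter drives the Cre, was higher by 0.88 as deposited and did not pass after rescaling (0.43, limma adjusted p = 0.151), and *Nr1i2*, a xenobiotic receptor, was higher by 0.65 as deposited and 0.19 after rescaling (limma adjusted p = 0.274).

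Genes downstream of the pathway were counted from lists of known male-biased and female-biased liver genes, which include genes already known to move in these livers. Of 22 male-biased genes, 21 were lower and 1 higher in KO males (median -4.30), and 12 were lower and 5 higher in KO females (median -1.81). Of all tested genes, 2.81% were lower and 43.3% higher in KO males, and 4.68% were lower and 29.1% higher in KO females. The interaction passed in 16 of the 22, negative in each, against 0.912% of all tested genes in either direction. In a male-biased gene, a smaller sex difference in KO than in WT gives this sign. Over both sexes 16 were lower and 1 was higher (*C6*, a complement component), with a median of -2.63, against 4.82% and 50.1% of all tested genes. The largest falls were *Mup7* (-8.03) and *Mup1* (-7.11), urinary pheromone carriers of a near-identical family whose split is uncertain, *Slco1a1* (-6.18), an organic anion transporter, and *Serpina1e* (-5.93), a protease inhibitor of another such family. Of 25 female-biased genes, 11 were higher and 0 lower in KO males (median 0.82), against 43.3% of all tested genes higher there as deposited. In WT males 14 of the 25 averaged under 0.5 TPM, 4 of them at 0, so that these had little or no room to be lower in KO males. In KO females 22 were lower and 1 was higher (median -3.67). The interaction passed in 21 of the 25, positive in each, a sign that for genes near 0 in males restates the fall in females. Over both sexes 11 were lower and 1 was higher (*Sult1e1*, the estrogen sulfotransferase), with a median of -1.25. *Sult1e1* was not female-biased in these WT livers, with means of 0.448 TPM in males and 0.427 TPM in females. In KO its means were 20.8 TPM in males and 5.61 TPM in females. In WT, 24 of the 25 listed genes were higher in females. After rescaling the female-biased list had 10 higher and 0 lower in males (13.9% of all tested genes higher), 24 lower and 0 higher in females, and 14 lower and 1 higher over both sexes. The male-biased list then had 21 lower and 0 higher in males, 13 lower and 5 higher in females, and 16 lower and 1 higher over both sexes. Of all tested genes, 10.2% were then lower in males, 10.9% in females and 18.7% over both sexes. Over both sexes 20.9% were then higher, and in females 1872 of the 12278 genes were. The summed level of the male-biased list was 49795 to 89466 TPM in WT males, 1918 to 3917 in WT females, 6594 to 10889 in KO males and 4184 to 4595 in KO females. A few abundant genes carry these sums, and *Mup7* alone averaged 34169 TPM in WT males. *Gstp1* and *Mup20* averaged 2040 and 1692 TPM in KO females, against 561 and 104 TPM in WT females. The KO female sum was thus the higher one although 12 of the 22 genes were lower there. That of the female-biased list was 9584 to 11824 TPM in WT females, 50.6 to 311 in WT males, 501 to 1040 in KO females and 395 to 475 in KO males.

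The authors' deposited table gives its own KO to WT comparison, whose model is not stated. For *Ghr*, *Igf1* and *Igfals* the authors' deposited table has log2 fold changes of -1.70, -0.84 and -2.004 with FDR p-values printed as 0, 0.01 and 0. *Bcl6* in the authors' deposited table has -1.55 (FDR p-value printed as 0), while here its groups overlapped. For *Cux2* the authors' deposited table has a log2 fold change of 3.43 (FDR p-value printed as 0), whereas the mean TPM of the 6 KO livers was lower than that of the 6 WT livers, 2.17 against 6.72, a log2 ratio of -1.63. In males alone the mean of *Cux2* was 11.4-fold higher in KO, and the difference over both sexes was 0.20 with a pseudocount of 0.1. For *Stat5b* it is -0.14 in the authors' deposited table against 0.61 here as deposited and 0.16 after rescaling. After rescaling *Jak2* was at 0.23, *Stat5a* at 0.26, *Ghr* at -1.52, *Igf1* at -0.91, *Igfals* at -2.06, *Socs2* at 0.51, *Cish* at 0.49, *Bcl6* at -0.71 and *Cux2* at -0.64 here. The authors' deposited table has 0.21 for *Jak2*, 0.17 for *Stat5a*, 0.89 for *Socs2* and 0.67 for *Cish*, with FDR p-values printed as 0.48, 0.68, 0.06 and 0.20.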

How the data were processed

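The deposited table gave 1 column of TPM per mouse for 25676 genes, made by the authors, per the file headers; each column summed to 1000000, so that a value is a share and read depth is not known. The submitters' processing notes name GRCm38 and edgeR without saying what each was used for; the aligner and counter are not given in the sources used here. The table also held the authors' own fold changes, log2 fold changes and FDR p-values, per the file headers; these were only quoted. All 12 columns matched 1 sample each. Groups came from sample titles. Replicates were numbered in order of deposition and pair no samples. The labels do not say how the mice were bred, so p-values measure the spread between these 12 mice. No 2 libraries were identical, and within groups the correlation of log2(TPM + 1) was 0.967 to 0.990.

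The 12278 genes whose TPM averaged 0.5 or more over the livers were analysed as log2(TPM + 1), a pseudocount of 1, with limma 3.58.1 in R 4.3.3 (lmFit, eBayes with trend; two-sided, Benjamini-Hochberg, threshold 0.05). The comparison over both sexes had sex as a covariate, and the others came from 1 model of the 4 group means. The fit was tested on simulated data. Median-of-ratios rescaling used genes above 0 in every sample. Positions are those of GENCODE M21 on GRCm38, which matched 25635 identifiers. Alternatives were a pseudocount of 0.1, no filter, median-of-ratios rescaling, rescaling without the 20 most abundant genes, no trend, a covariate for 2 mice with animal numbers under 100, and leaving out each mouse; leaving out both those mice together was added after seeing the data. The members and lists were chosen with earlier results of these data known. The text names all 10 members and, per list, up to 4 genes in each direction among those past the threshold with the largest differences. It also names the 5 genes most like *Cux2*, *Bcl6* and *Igf1*, and *Yap1* and Y-linked genes as checks. Given outside this rule, chosen after their values were seen, are *Prlr*, *Tox*, *Trim24*, the details of *Lepr*, *Krt19*, *Epcam*, *Gstp1* and *Mup20*. The values of 1 gene of the regulator list, which is in its counts, are not reported here.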

Additional observations from a re-analysis of the deposited data

Results flagged for a closer look

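*Cux2* was flagged because its values separated by genotype in opposite directions in the sexes. All 3 KO males lay above all 3 WT males, and all 3 KO females lay below all 3 WT females. How many of all tested genes separate by genotype within a sex was not counted. The difference in males did not pass (0.70, limma adjusted p = 0.133). The interaction was 2.29, and with limma its adjusted p was 0.0684, so the test of the difference itself did not pass.

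Among the other receptor signalling genes and regulators the interaction passed with limma for 3, each higher in WT females than in WT males; the male-biased and female-biased lists, where it passed in 16 and 21 genes, are counted above. *Prlr*, the prolactin receptor, a relative of *Ghr*, was at 10.8, 9.06 and 13.1 TPM in WT males and 52.9, 58.8 and 60.9 in WT females, and at 15.1 to 24.0 in KO males and 18.8 to 29.7 in KO females (interaction 1.98, SE 0.289, limma adjusted p = 0.00313). *Tox*, a nuclear factor, was at 0.699 to 1.35 TPM in WT males, 7.80 to 9.98 in WT females, 0.898 to 2.60 in KO males and 1.70 to 3.57 in KO females (interaction 1.82, SE 0.358, limma adjusted p = 0.031). *Trim24*, a transcriptional co-regulator, was at 5.64 to 10.02 TPM in WT males, 27.6 to 36.8 in WT females, 12.3 to 17.8 in KO males and 16.6 to 20.2 in KO females (interaction 1.71, SE 0.284, limma adjusted p = 0.00945). In *Prlr*, *Tox* and *Trim24* the 4 groups were ordered as in *Cux2* by their means, WT female, KO female, KO male and WT male.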

How the results depend on the processing

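No paired analysis was possible because the labels give no replicate numbers shared between groups. After median-of-ratios rescaling the genes of the set that passed over both sexes went from 6 to 3, and the count of all genes in males from 5663 to 2959. With no filter, 1 gene of the set passed for sex in WT (2 as reported), as also without both mice with animal numbers under 100, when 458 of all genes did (705 as reported). For the interaction, 1 gene of the set (*Cux2*) passed with a pseudocount of 0.1 and without the 20 most abundant genes.

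When each mouse was left out in turn, all genes passing ranged from 290 to 1696 for sex in WT, 75 to 176 for the interaction and 6 to 10 for sex in KO; genes of the set ranged from 1 to 3 for sex in WT and 0 to 1 for the interaction. Signs turned only for differences that passed neither as reported nor in the alternative. With rescaling these were, within sexes, *Stat5b* in males (-0.058), *Bcl6*, *Socs2* and *Cish* in females (-0.23, -0.30 and -0.17) and the interaction of *Jak2* (-0.16). Without the 20 most abundant genes, *Socs2* in females was -0.040 and the KO sex difference of *Igf1* was -0.015. With a pseudocount of 0.1, *Cux2* over both sexes was 0.20. Without both mice with animal numbers under 100, *Bcl6* in females was -0.33, and the KO sex differences of *Ghr* and *Socs2* were -0.036 and 0.21. With 1 mouse left out at a time, *Bcl6* over both sexes ranged from -0.47 to 0.035. In females *Bcl6* ranged from -0.25 to 0.27, *Socs2* from -0.38 to 0.34 and *Cish* from -0.082 to 0.53. The interaction of *Jak2* ranged from -0.057 to 0.15. The KO sex difference ranged from -0.095 to 0.17 for *Ghr*, -0.064 to 0.33 for *Stat5a*, -0.042 to 0.28 for *Stat5b*, -0.28 to 0.18 for *Igf1*, -0.60 to 0.017 for *Igfals*, -0.34 to 0.21 for *Socs2* and -0.24 to 0.52 for *Cish*. The causes were not tested. Read depth is not in the table, so the precision of low values such as *Cux2* in WT males cannot be given.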
